A study of Mus musculus with 6 samples.

Results

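PIWI proteins and the factors that make or protect their small RNAs were compared between knockout and control mouse testes. The set held 10 genes, each read by a single transcript cluster (a set of array probes that together read 1 transcribed region), out of 19938 genes and 21789 clusters with a single gene symbol. They were chosen by name as PIWI proteins (Piwil1, Piwil2, Piwil4), factors of piRNA production (Mov10l1, Pld6, Asz1, Gpat2), the enzyme that protects piRNA ends (Henmt1) and partners of silencing (Mael, Gtsf1), without Tudor-domain proteins. The samples were 3 knockout and 3 control testis RNAs, all of pups at postnatal day 15, hybridised to Affymetrix MoGene-1_0-st-v1 arrays. The labels used here give neither a strain nor the cells in which the gene was deleted, and do not say whether replicates are separate animals, so p-values reflect sample-to-sample spread that could be technical. Values are on the log2 scale, so 1 unit is a doubling of signal, and array medians lay between 8.075 and 8.1. The number of arrays limits the precision.

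PIWI proteins are Argonaute-family proteins of the germ line that carry piRNAs, small RNAs that guide them to transposon and other transcripts. Prepachytene piRNAs, rich in transposon sequence, are made in prospermatogonia and spermatogonia, where they direct cleavage and, before birth, DNA methylation of transposons. Pachytene piRNAs are made from large dedicated loci that the transcription factor A-MYB (gene Mybl1) switches on when spermatocytes enter pachytene. At postnatal day 15 the first wave of meiosis in mice has reached pachytene. Among the 10 genes, Piwil1 is the one known to be switched on at pachytene; the other 9 are known to be on before it.

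Signs of the labelled tissue were present. The 13 measured Sertoli cell markers had control means of 10.34 to 12.90, and 14 markers of leptotene to zygotene spermatocytes 9.19 to 11.97, all above the array medians. The 9 spermatid markers had control means of 5.51 to 8.13. Control means of the 18 pachytene markers ran from 5.51 to 11.94, on both sides of the array medians. Acrv1 (5.51) was counted in both of these last lists.

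Piwil1, which encodes MIWI, the PIWI protein that carries pachytene piRNAs in spermatocytes and round spermatids, had the largest difference of the 10 genes and by far the largest spread. Its cluster (10525961, chromosome 5) read 9.92, 10.04 and 10.45 in the knockout arrays, against 10.31, 11.12 and 11.00 in the control arrays. The groups overlapped, because control replicate 1 lay below knockout replicate 3, while the other control arrays lay above every knockout array. The means were 10.14 ± 0.28 in knockout and 10.81 ± 0.44 in control testes (SD, n = 3 each). The difference was -0.67 (SE 0.23, 95% interval -1.20 to -0.14, 0.627-fold), with a limma p of 0.0195 and an adjusted p of 0.389. Its residual SD of 0.366 was reached or passed by 0.6% of all clusters, whereas those of the other 9 genes were 0.0508 to 0.107. Without control replicate 1 the difference was -0.92 and the adjusted p 0.0966.

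Because A-MYB drives Piwil1, the RefSeq promoter window of Piwil1 is shown beside those of Henmt1 and Mael, the 2 genes on before pachytene with an adjusted p closest to the threshold among those with a single window. Each runs from 250 bases before to 50 bases after the gene's start in assembly GRCm38.p6, and capitals mark AACNG or its reverse complement, the core of the MYB binding motif, on either strand. The windows are chr5:128735996-128736295 (plus strand), chr3:108940307-108940606 (plus strand) and chr1:166238695-166238994 (minus strand, printed 5′ to 3′ along the gene).
Piwil1: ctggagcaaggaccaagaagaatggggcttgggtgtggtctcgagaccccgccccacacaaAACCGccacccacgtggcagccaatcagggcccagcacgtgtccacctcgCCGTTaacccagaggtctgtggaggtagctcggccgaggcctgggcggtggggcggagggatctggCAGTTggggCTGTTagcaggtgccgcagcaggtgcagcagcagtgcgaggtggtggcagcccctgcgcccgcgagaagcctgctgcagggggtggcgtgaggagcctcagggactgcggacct
Henmt1: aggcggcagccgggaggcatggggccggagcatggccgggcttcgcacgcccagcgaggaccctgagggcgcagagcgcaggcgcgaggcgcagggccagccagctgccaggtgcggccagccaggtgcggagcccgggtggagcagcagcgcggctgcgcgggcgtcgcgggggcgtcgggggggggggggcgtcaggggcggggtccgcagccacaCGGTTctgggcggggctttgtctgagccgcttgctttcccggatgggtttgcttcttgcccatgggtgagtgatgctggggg
Mael: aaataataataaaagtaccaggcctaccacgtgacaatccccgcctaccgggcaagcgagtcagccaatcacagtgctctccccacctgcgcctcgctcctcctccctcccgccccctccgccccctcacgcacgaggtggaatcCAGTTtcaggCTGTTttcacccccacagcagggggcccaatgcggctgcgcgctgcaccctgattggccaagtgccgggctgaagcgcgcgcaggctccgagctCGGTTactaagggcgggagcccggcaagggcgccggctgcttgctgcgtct

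The Piwil1 window held 4 AACNG matches, with first bases at -189, -139, -73 and -64 from the start. Such a count or more occurred in 11.75% of 32817 promoter windows of the same length, and at least 1 match in 80.29%. The match at -73 is part of the longer word CAACTG, which contains AACNG and is also an E-box word, and which occurred in 13.65% of windows. Henmt1 held 1 match and Mael 3. Windows were found for 9 of the 10 genes (11 windows in all); 8 genes had a window with AACNG and 1, Piwil1, a window with CAACTG. A match describes these letters and is not a binding site. The transcript of Mybl1 itself differed by -0.06 (SE 0.051, adjusted p = 0.744), with overlapping groups. The A-MYB protein was not measured, and its part in the differences of the 10 genes was not tested.

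Piwil4 encodes MIWI2, the nuclear PIWI protein of prospermatogonia that directs DNA methylation of transposons. Its cluster (10590933, chromosome 9) read 7.76, 7.62 and 7.75 in the knockout arrays, against 7.99, 7.97 and 8.02 in the control arrays. All knockout values lay below all control values, by at least 0.21, and the control values lay within 0.05 of each other. The means were 7.71 ± 0.078 in knockout and 7.99 ± 0.025 in control testes, a difference of -0.28 (SE 0.051, 95% interval -0.40 to -0.16, 0.822-fold, adjusted p = 0.256). Its level lay below the array median, and RMA compresses differences of dim clusters. Whether its signal stood above background was not tested.

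Piwil2 encodes MILI, the PIWI protein present from prospermatogonia to round spermatids, which cleaves transposon transcripts and carries piRNAs of both phases. Its cluster (10421325, chromosome 14) read 11.11, 11.11 and 11.19 in the knockout arrays, against 11.25, 11.39 and 11.31 in the control arrays. The groups did not overlap, with 0.06 between the nearest values. The difference was -0.18 (SE 0.052, 95% interval -0.30 to -0.06, 0.883-fold, adjusted p = 0.358).

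**Figure D1:**
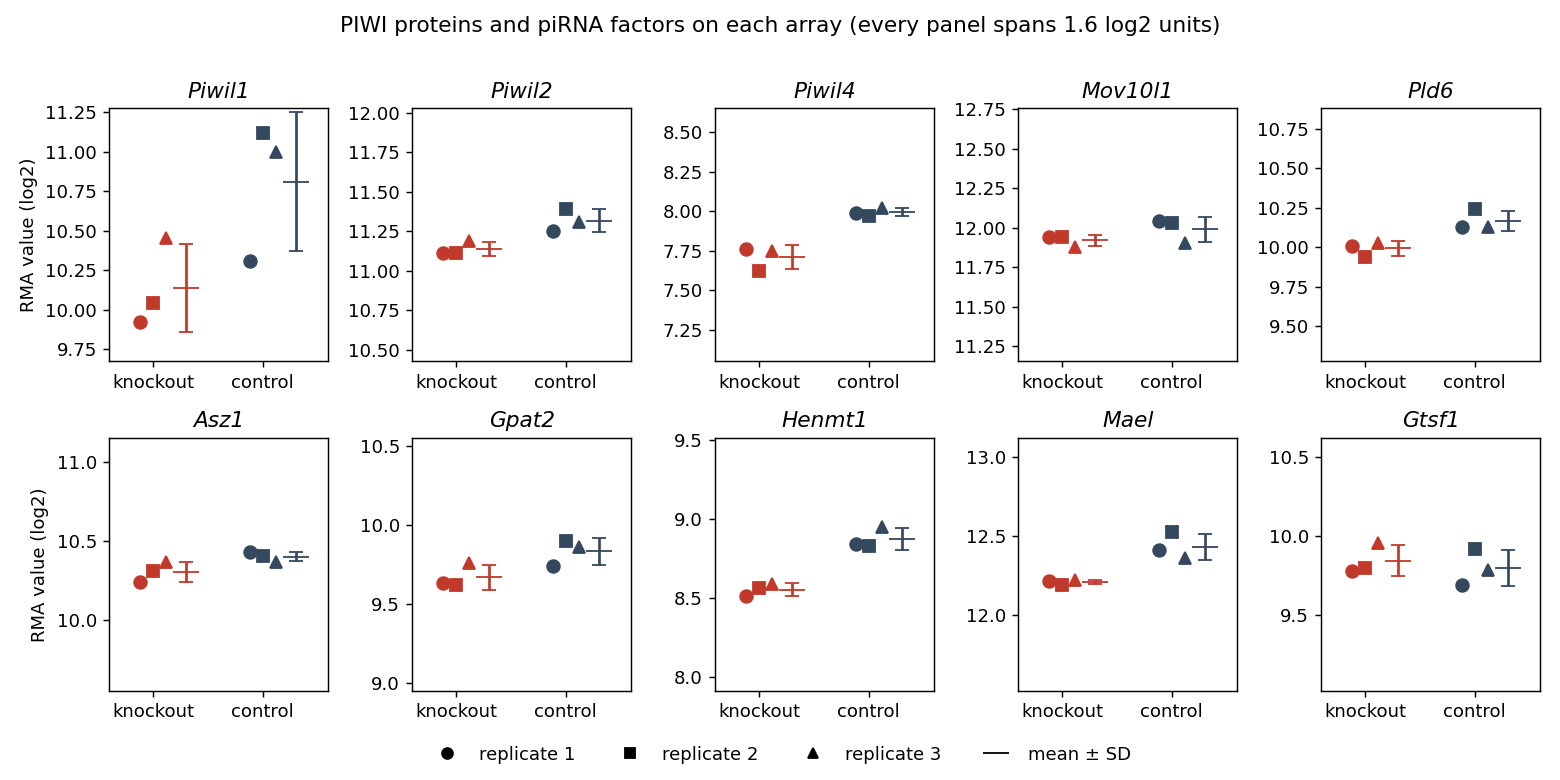
RMA values (log2, vertical axis) of the 10 genes in the 3 knockout (red) and 3 control (dark) arrays, 1 panel per gene, each panel spanning the same 1.6 log2 units; marker shapes are replicates and bars are mean ± SD. Piwil1 spreads over 0.53 in knockout and 0.81 in control arrays, while Henmt1 and Piwil4 show narrow groups that do not overlap.

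Henmt1 encodes the methyltransferase that adds a methyl group to the end of each piRNA and so shields it from decay. Of the 10 genes it had the smallest p. Its cluster (10495385, chromosome 3) read 8.51, 8.56 and 8.59 in the knockout arrays, against 8.84, 8.83 and 8.95 in the control arrays. The nearest values of the groups were 0.24 apart, the widest gap of the 10 genes, and control replicate 1 lay with the other controls. The means were 8.55 ± 0.040 in knockout and 8.87 ± 0.067 in control testes. The difference was -0.32 (SE 0.050, 95% interval -0.44 to -0.20, 0.801-fold), with a limma p of 3.10e-04, rank 25 of 21789 clusters, and an adjusted p of 0.242.

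Mael encodes Maelstrom, an HMG-box protein of germ granules needed for transposon silencing and for pachytene piRNA precursors. Its cluster (10359801, chromosome 1) read 12.21, 12.19 and 12.22 in the knockout arrays, against 12.41, 12.52 and 12.36 in the control arrays. The knockout values lay within 0.03 of each other and 0.14 or more below every control value. The difference was -0.22 (SE 0.051, 95% interval -0.34 to -0.10, 0.857-fold, adjusted p = 0.294).

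Gtsf1, the other silencing partner, encodes a small zinc-finger protein that binds PIWI proteins and aids their target cleavage. It was the 1 gene of the 10 with a mean above control. Its cluster (10433145, chromosome 15) read 9.78, 9.80 and 9.96 in the knockout arrays, against 9.69, 9.92 and 9.79 in the control arrays. The groups overlapped throughout, and the difference of 0.05 had a 95% interval of -0.13 to 0.22 (adjusted p = 0.874), its sign turning without knockout replicate 3 (-0.01) or control replicate 1 (-0.0083).

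The production factors are the RNA helicase Mov10l1, which feeds piRNA precursors into processing, and 3 proteins of the mitochondrial surface: the endonuclease Pld6 that cuts precursors, the ankyrin-repeat scaffold Asz1 and the acyltransferase-family protein Gpat2, which binds PIWIL2. Pld6 (cluster 10386423, chromosome 11) read 10.01, 9.94 and 10.03 in the knockout arrays, against 10.13, 10.24 and 10.13 in the control arrays. Its groups did not overlap, and the difference was -0.17 (SE 0.050, 0.887-fold, adjusted p = 0.359). Gpat2 (cluster 10475804, chromosome 2) read 9.63, 9.62 and 9.76 in the knockout arrays, against 9.74, 9.90 and 9.86 in the control arrays. Knockout replicate 3 lay just above control replicate 1, so the groups overlapped, and the difference was -0.16 (SE 0.061, adjusted p = 0.421). Asz1 (cluster 10543259, chromosome 6) read 10.24, 10.31 and 10.37 in the knockout arrays, against 10.43, 10.41 and 10.37 in the control arrays. The groups met at 10.37, and the difference was -0.10 (95% interval -0.21 to 0.02, adjusted p = 0.530), or -0.063 without knockout replicate 1. Mov10l1 (cluster 10426118, chromosome 15) read 11.94, 11.94 and 11.88 in the knockout arrays, against 12.04, 12.03 and 11.90 in the control arrays. Its groups overlapped at control replicate 3, and the difference was -0.07 (95% interval -0.19 to 0.05, adjusted p = 0.688). It was -0.12 without control replicate 3 and -0.045 without control replicate 1.

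None of the 10 genes passed an adjusted p of 0.05 in limma (0 of 10, adjusted p-values 0.242 to 0.874), where 0.0138% of all clusters did. At an unadjusted p under 0.05, 7 of 10 were lower and 0 higher in the knockout, against 6.45% of all clusters lower and 4.1% higher. The groups did not overlap, with the knockout lower, in 5 of 10 genes, against 8.6% of all clusters, and with the knockout higher in 0, against 6.73%. The 5 were Piwil2, Piwil4, Pld6, Henmt1 and Mael, all among the 9 genes on before pachytene, a class that leaves out only Piwil1. Without knockout replicate 3 the count of genes without overlap was 8, against 12.9% of all clusters. Differences were below 0 for 9 of 10 genes, against 47% of clusters, and their median was -0.18 (0.885-fold), against 0.0033 over all clusters.

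**Figure D2:**
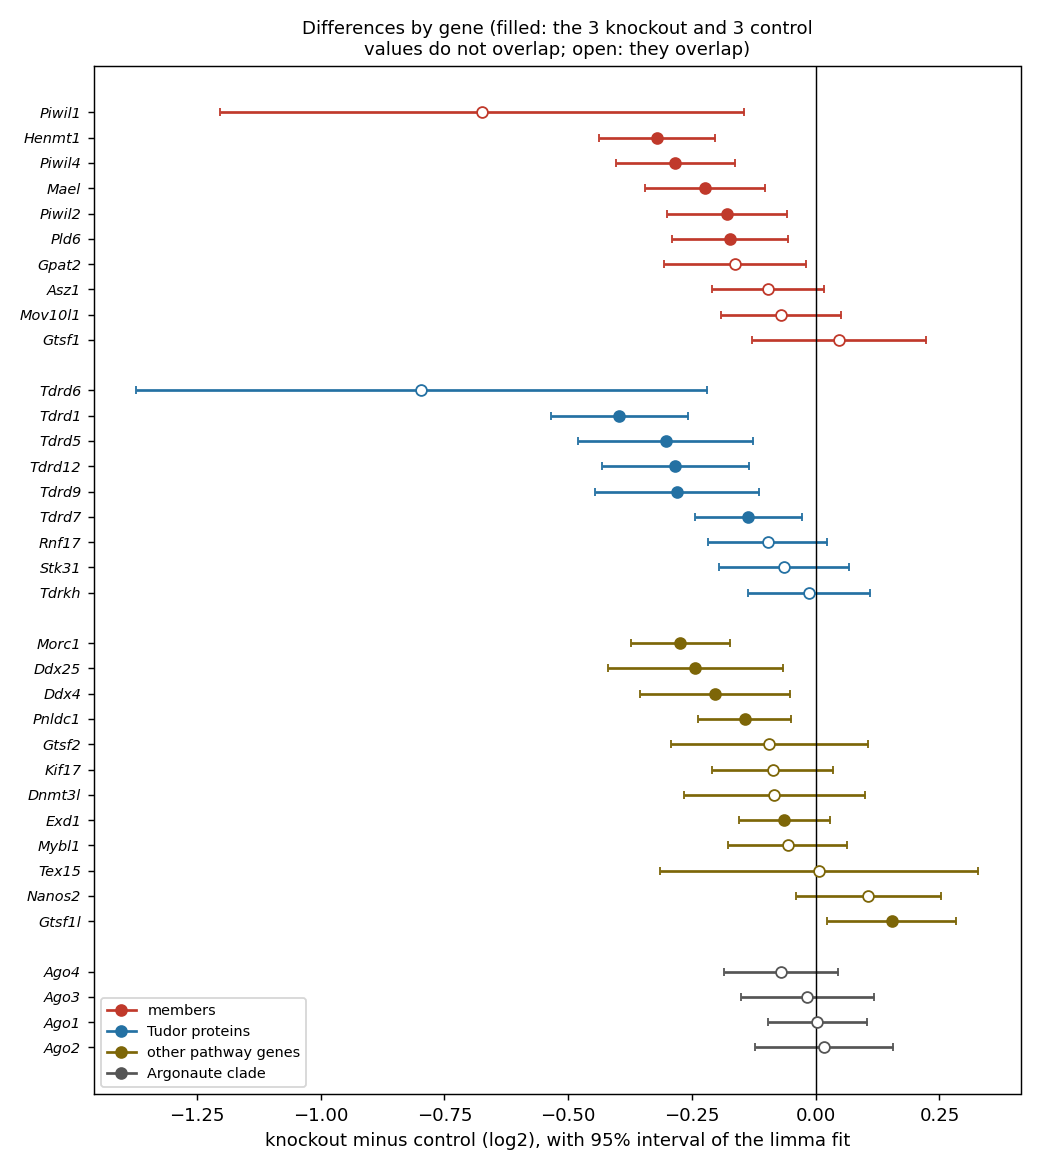
Knockout minus control differences (log2, horizontal axis; points) with 95% intervals of the limma fit (bars) for the 10 genes, Tudor-domain proteins, other pathway genes and the Argonaute clade; filled points mark genes whose groups do not overlap. Intervals of 7 of the 10 genes lie below 0, the interval of Piwil1 is the widest among them, and the 4 Argonaute genes lie near 0.

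In order of the difference, from the most negative, the genes ran Piwil1, Henmt1, Piwil4, Mael, Piwil2, Pld6, Gpat2, Asz1, Mov10l1 and Gtsf1. Between Piwil1 and Henmt1 the gap was 0.35 (combined SE 0.23), and between Mov10l1 and Gtsf1 it was 0.12 (combined SE 0.091). Each of the other neighbouring gaps, 0.007 to 0.067, was smaller than its combined SE of 0.071 to 0.079. No neighbours differed by 2 combined SE or more. The combined SE treats the 2 genes as independent, although all were read on the same arrays, so it cannot decide the order of neighbours. Genes further apart in the order, such as Henmt1 (-0.32, SE 0.050) and Mov10l1 (-0.07, SE 0.052), were not compared in this way. Small gaps between neighbours therefore do not show that the whole order is unresolved.

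Piwil1, the pachytene gene, had a larger difference than the PIWI genes on before pachytene, but not beyond the spread of the arrays. The difference of Piwil1 exceeded that of Piwil2 by -0.49, and the per-array values of Piwil1 minus Piwil2, relative to their control mean, were -0.68, -0.56 and -0.23 in knockout arrays, against -0.43, 0.24 and 0.20 in control arrays. The exact permutation p was 0.2 (two-sided, n = 3 each). Against Piwil4 the excess was -0.39, with -0.66, -0.40 and -0.12 in knockout arrays, against -0.50, 0.33 and 0.16 in control arrays, and the exact permutation p was 0.3. With 3 arrays against 3 this test cannot go below 0.1. The second contrast moved with single arrays: it was -0.22 without control replicate 2, -0.26 without knockout replicate 1 and -0.64 without control replicate 1, and over all single leave-outs the first ran from -0.71 to -0.38. In both contrasts control replicate 1 lay among the knockout arrays. The mean of the 9 genes without Piwil1, relative to control, was -0.18, -0.19 and -0.12 in knockout arrays, against -0.03, 0.05 and -0.01 in control arrays. These means did not overlap, and control replicate 1 lay above every knockout array.

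The genes with the profile most like that of Piwil1 over the 6 arrays were looked up as a description. Nearness was the root mean square difference of values centred on each cluster's own mean, over clusters with a symbol that is not a predicted gene. The 5 nearest were Ldhc, the testis lactate dehydrogenase (0.043), Cfap70 (0.043), Cfap65 (0.055), Marchf10 (0.058) and Cfap206 (0.071), against a median of 0.46 over all such clusters and a size of 0.45 for the Piwil1 profile itself. The Cfap genes encode proteins of cilia and flagella, and Marchf10 a ubiquitin ligase described in rat spermatids. Ldhc read 10.22, 10.37 and 10.76 in the knockout arrays, against 10.67, 11.51 and 11.42 in the control arrays. The differences of the 5 genes were -0.75 to -0.59. Their likeness to Piwil1, in the order of the arrays and in the size of the difference, follows from how they were chosen.

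**Figure D3:**
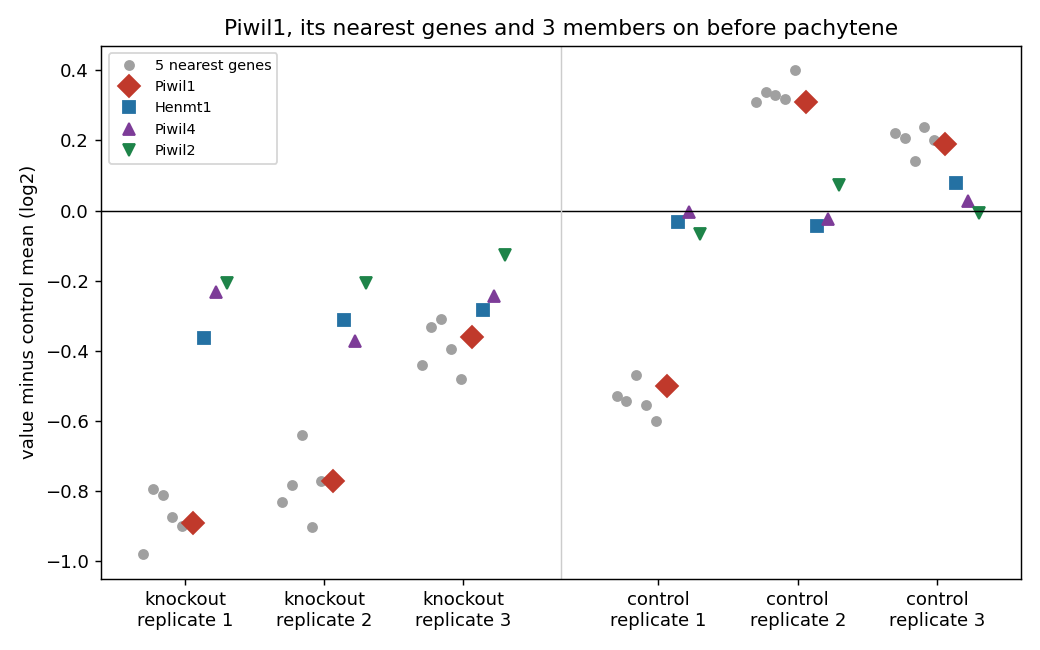
Values minus the control mean (log2, vertical axis) on each of the 6 arrays (horizontal axis, no order among replicates) for Piwil1 (diamonds), its 5 nearest genes (grey) and Henmt1, Piwil4 and Piwil2. The 5 nearest genes were chosen for their likeness to Piwil1 on these arrays. Piwil1 lies at -0.50 in control replicate 1, where Henmt1, Piwil4 and Piwil2 stay between -0.067 and -0.003.

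Other genes of the pathway were taken from a list of 26, of which 21 were measured on clusters with a single symbol. Of these 21, 0 passed the adjusted threshold in limma, and at an unadjusted p under 0.05, 10 were lower and 1 higher in the knockout, against 6.45% and 4.1% of all clusters. Differences were below 0 for 18 and above for 3, against 47% of all clusters below 0, with a median of -0.10 (0.935-fold). With the knockout lower, groups did not overlap in 10 of the 21 genes, against 8.6% of all clusters, and with it higher in 1, against 6.73%. Of these 10 lower genes, 9 also had an unadjusted limma p under 0.05. Among these 9, Tdrd1 differed by -0.40 (SE 0.059), Tdrd5 by -0.30, Tdrd12 by -0.28, Tdrd9 by -0.28 and Tdrd7 by -0.14. These are Tudor-domain proteins, scaffolds and helicases that dock on PIWI proteins in germ granules. Tdrd6, another Tudor protein, named after its values were seen, had the largest difference of the 21 genes, -0.80 (SE 0.25, adjusted p = 0.376). It read 6.59, 6.68 and 7.04 in the knockout arrays, against 6.98, 7.93 and 7.79 in the control arrays, and as in Piwil1 its groups overlapped because control replicate 1 lay below knockout replicate 3. Morc1, an ATPase of transposon repression, differed by -0.27 (SE 0.043), the germ-cell helicases Ddx25 and Ddx4 by -0.24 and -0.20, and Pnldc1, the nuclease that trims piRNA ends, by -0.14. Gtsf1l, a paralog of Gtsf1, was 0.15 higher (SE 0.055) at a low level of 6.39 in knockout and 6.24 in control testes.

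The Argonaute clade, relatives of PIWI proteins that carry microRNAs in most cells, differed little. Ago1 differed by 0.0033, Ago2 by 0.017, Ago3 by -0.017 and Ago4 by -0.07, with SEs of 0.043 to 0.060 and overlapping groups in all 4. Ago2 was read by its brighter cluster of 2.

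Marker lists of germ cell stages are given beside these genes, and no marker in them passed the adjusted threshold in limma. In whole testes, fewer cells of a type and less RNA per cell cannot be told apart. The 18 pachytene markers, a list without Piwil1, had a median difference of -0.24 (14 below and 4 above control), with 10 lower and 0 higher at an unadjusted p under 0.05, against 6.45% and 4.1% of all clusters. Their mean relative to control was -0.36, -0.32 and -0.20 in knockout arrays, against -0.22, 0.14 and 0.07 in control arrays, so that control replicate 1 lay below knockout replicate 3. Control replicate 1 was the lowest control in 13 of 18 pachytene markers, against 25.2% of all clusters. In the 10 genes it was the lowest control, without ties, in 4: Piwil1, Piwil2, Gpat2 and Gtsf1. The 14 markers of leptotene to zygotene spermatocytes had a median of -0.045, with means of -0.17, -0.14 and 0.015 in knockout arrays, against -0.03, -0.002 and 0.029 in control arrays, and these overlapped. Knockout replicate 3 was the highest knockout in 14 of 14 of these markers and in 8 of the 10 genes, against 30.7% of all clusters. The 9 markers of differentiating spermatogonia had a median of -0.05 and means of -0.13, -0.12 and -0.05 in knockout arrays, against 0.03, -0.04 and 0.01 in control arrays. At an unadjusted limma p under 0.05, 4 of these 9 markers were lower and 0 higher in the knockout. Of the 14 leptotene to zygotene markers, 4 were lower and 0 higher, against 6.45% and 4.1% of all clusters. With the knockout lower, groups did not overlap in 4 of the 9 and 4 of the 14, against 8.6% of all clusters. With it higher they did not overlap in 1 of the 9 and 0 of the 14, against 6.73%. The part of these germ cells in the values of the 10 genes was not tested.

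Markers of undifferentiated spermatogonia went both ways, with 6 of 13 below and 7 above control and a median of 0.11. At an unadjusted p under 0.05, 3 of them were lower and 5 higher, against 6.45% and 4.1% of all clusters. Gfra1, the GDNF receptor of stem spermatogonia, differed by 0.39 and Sall4, a zinc-finger factor, by -0.30, both without overlap. The median difference was 0.07 over 13 Sertoli cell genes (2 below and 11 above control) and 0.14 over 10 macrophage genes (1 below and 9 above). It was 0.30 over 6 Leydig cell genes (1 below and 5 above), whose means relative to control overlapped, at 0.10, 0.16 and 0.30 in knockout arrays, against 0.19, -0.03 and -0.16 in control arrays. The Leydig gene with the smallest p, Hsd17b3, which makes testosterone, differed by -0.43, and the next, Cyp11a1, which makes pregnenolone, by 0.37, both without overlap. Over 6 peritubular myoid genes it was -0.017 and over 7 endothelial genes -0.01. The Sertoli means relative to control were 0.05, 0.09 and 0.06 in knockout arrays, against 0.02, -0.04 and 0.02 in control arrays. No marker in any of these lists passed the adjusted threshold in limma, and their part in the differences of the 10 genes was not tested.

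**Figure D4:**
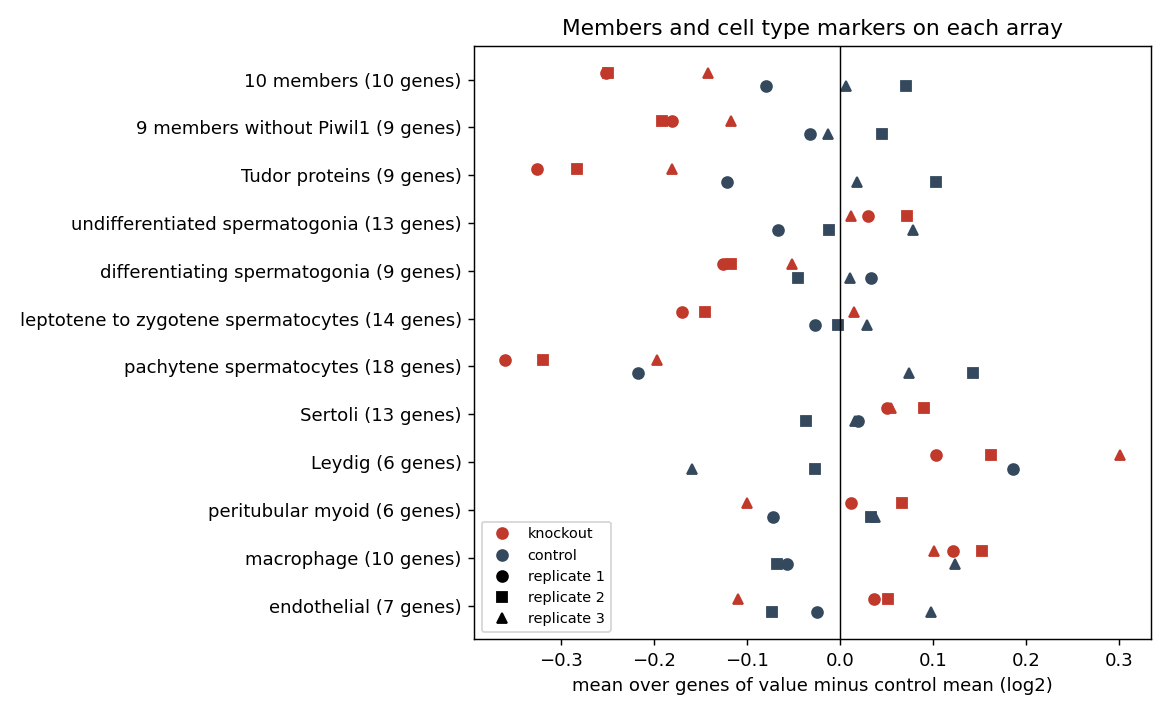
Mean over genes of value minus control mean (log2, horizontal axis) on each array, for the 10 genes, for the 9 without Piwil1, and for Tudor proteins and cell type markers (rows, number of genes in brackets); red is knockout, dark is control, shapes are replicates. Control replicate 1 lies at -0.22 in pachytene markers, within the knockout range of -0.36 to -0.20, and at -0.03 in the 9 genes, outside their knockout range of -0.19 to -0.12.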

How the data were processed

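Total RNA of testes was hybridised to Affymetrix MoGene-1_0-st-v1 arrays. Per the submitters' processing notes, the authors made the deposited log2 values with RMA in Affymetrix Expression Console (background correction, quantile normalisation, summary over probes). Versions, the probe annotation and the build of the array design were not given in the sources used here. RMA forces 1 distribution on all arrays and compresses differences of dim clusters. Clusters were named through the platform annotation, and symbols updated by gene identifier to GRCm38.p6. Of 35556 rows, 21789 had a single symbol and were tested; the rest were left out. Scan dates and scanner files were not used here. The targeted gene is not reported here.

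The fit used limma 3.58.1 in R 4.3.3 (lmFit and eBayes without covariates; 4 residual and 3.24 prior degrees of freedom), with Benjamini-Hochberg adjustment over 21789 clusters and a threshold of 0.05. Differences are knockout minus control. Genes with several clusters were read by the brightest. The procedure was tested on simulated data with noise independent between clusters. Its power for differences as small as those of most of the 10 genes was not assessed. The genes and lists were chosen with earlier results of these data known. All 10 genes, the 4 Argonaute genes, the 5 genes nearest to Piwil1 and pathway genes with separate groups at an unadjusted p under 0.05 are named; Mybl1 is named because it bears on Piwil1. Between same-numbered replicates, deviations from group means correlated at 0.166, -0.054 and 0.17. The highest correlation of each knockout array with a control array of another number was -0.005, 0.084 and 0.058. Same-numbered arrays were thus closer for replicates 1 and 3 but not for replicate 2, which does not settle whether the numbers are pairs. The main fit did not treat them as pairs, and a fit that blocked on the number was run beside it. Other settings tried were a replicate block, an intensity trend with robust prior, all rows, a filter on dim clusters (the lowest 25% by mean), median centring, a threshold of 0.1, and leaving out each array.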

Additional observations from a re-analysis of the deposited data

How the results depend on the processing

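None of the 10 genes passed at an adjusted p of 0.05 under any setting tried, nor at 0.1 with all arrays and the default prior, and the lowest adjusted p-values were 0.0914 (Henmt1 and Mael, with an intensity trend and robust prior) and 0.0966 (Piwil1, without control replicate 1). The sign of the difference was kept by 9 of the 10 genes under every setting; that of Gtsf1 turned to -0.01 without knockout replicate 3 and to -0.00833 without control replicate 1, and ranged up to 0.107 (without control replicate 2). The difference of Piwil1 ranged from -0.92 to -0.52 and that of Henmt1 from -0.34 to -0.28. The median of the 10 genes ranged from -0.212 to -0.14 when single arrays were left out, and was -0.157 with centred arrays. The count of genes without overlap, with the knockout lower, ranged from 5 to 8 when single arrays were left out. The share of all clusters rose as well, from 8.6% with all arrays to between 12.1% and 14.3%. The count of genes lower at an unadjusted limma p under 0.05 was 7 with all arrays. It ranged from 5 to 8 when single arrays were left out, against 4.41% to 6.15% of all clusters. It was 6 with an intensity trend and robust prior and 6 with centred arrays. Over all clusters the count past the threshold was 3, and it was 0 with the replicate block, 7 with an intensity trend and robust prior, 0 with all rows tested, 6 at the threshold of 0.1, and from 0 to 52 when single arrays were left out, with 52 without control replicate 1. With the replicate block 0 of the 10 genes passed, and sign flips of same-numbered pairs gave an exact permutation p of 0.25 for both contrasts of Piwil1. The cause of these changes was not tested.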
